A study of Mus musculus with 12 samples.

Results

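The 10 genes described here are the tenascins Tnc, Tnxb and Tnn, the thrombospondins Thbs1, Thbs2 and Thbs4, and Sparc, Postn, Fn1 and Spp1, found by name among the 54532 genes of the deposited count table. Dorsal root ganglia, which house the cell bodies of sensory neurons, were compared between 6 DAAO libraries and 6 control libraries from C57BL/6 mice, all of them given D-Alanine. The DAAO mice carried the genotype label DAAO-TGCdh5, a transgene for D-amino acid oxidase, which makes hydrogen peroxide from D-alanine; the control mice carried CDH5-Cre, with Cre under the promoter of the endothelial cadherin gene Cdh5. Cre is named in the genotype of the controls and, for the DAAO mice, in the sample names alone; ages were not stated. The comparison asks which ganglion transcripts differ when an oxidant-producing enzyme is directed to endothelium. These genes were picked with earlier results of the same comparison known, so their differences between the groups are given as a description, and the adjusted p-values quoted are those of a fit over all genes.

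Matricellular proteins are secreted proteins that sit in the extracellular matrix and act mainly by binding cell receptors, growth factors and other matrix proteins, rather than by bearing load. Tenascin-C is the classic example: it is abundant in developing and injured tissue, sparse in most resting adult tissue, and in peripheral nerve it is made by Schwann cells and sheath cells after damage. Periostin binds tenascin-C and fibronectin, thrombospondins regulate adhesion and activation of TGF-beta, and osteopontin (Spp1) is made in ganglia by large sensory neurons as well as by macrophages.

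The libraries held between 13227518 and 23884927 counts. Pan-neuronal markers (6 genes summed) ran from 4316 to 7499 CPM (counts scaled to library size) in DAAO libraries and from 6125 to 8596 CPM in control libraries, and satellite glia and myelinating Schwann cell markers were present in every library, as dorsal root ganglia should show. Tissue from around the ganglion varied: skeletal muscle markers (6 genes) summed to between 3.70 and 361 CPM in DAAO libraries and to between 10.1 and 2182 CPM in control libraries. Oligodendrocyte markers (4 genes, with Mag also on the myelinating Schwann cell list) summed to between 112 and 657 CPM in DAAO libraries. In control libraries they summed to between 42.3 and 2298 CPM. In 5 of the 12 libraries Xist and Y-linked transcripts were both above 10 CPM, so a library need not be 1 animal. Separate animals are not stated for the libraries, and the p-values speak only of library-to-library spread, which may be technical.

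Of the 10 genes, Tnc and Postn rose in DAAO ganglia, none fell, 7 did not pass the test, and Tnn was too low in counts to be tested. Tnc stood 24.8-fold higher in DAAO libraries and Postn 2.37-fold higher. The other 7 had log2 fold changes between -0.36 (Spp1) and 0.91 (Thbs2), each with groups that overlapped. The median over the 9 tested genes was 0.83 and that over all 17002 genes tested was 0.00. In whole ganglia, more cells of a type and more RNA per cell cannot be told apart. By edgeR's quasi-likelihood test with Benjamini-Hochberg adjustment, 0.506% of the 17002 genes were called higher and 0.247% lower, which is 0.753% or 128 genes in all. At an unadjusted p under 0.05 stood 5 of the 9 (Tnc, Postn, Tnxb, Thbs2 and Spp1) and 10.3% of the 17002. The 128 calls at an adjusted p under 0.05 became 78, 65, 73 and 61 without DAAO 1, 2, 3 and 6, and 80, 322 and 77 without control 1, 2 and 5, and both Tnc and Postn passed in each of these fits. Because the genes were chosen from this comparison, nothing is read from 2 calls against that background.

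**Figure D1:**
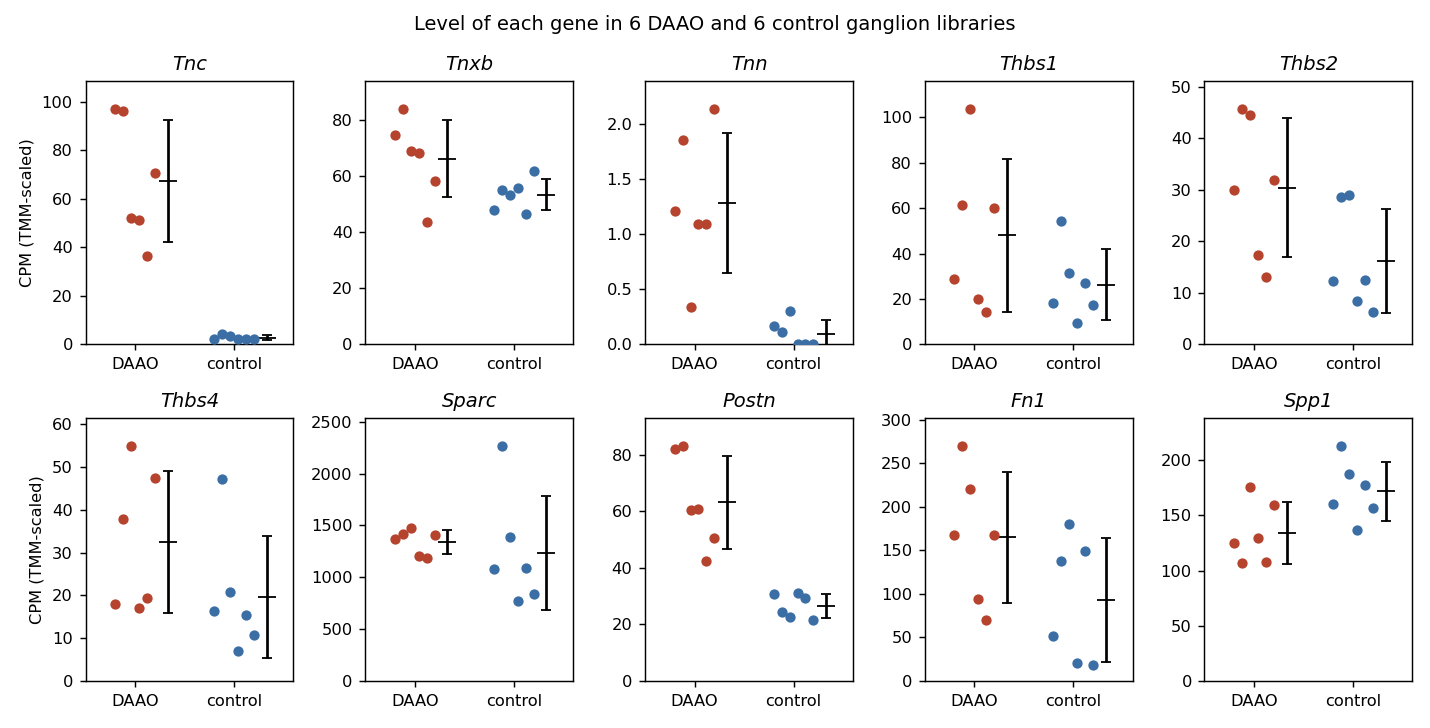
Level of each of the 10 genes in CPM on linear axes that start at 0, with 1 point per library, 6 DAAO libraries left and 6 control libraries right, and the mean and SD beside them. The groups are apart for Tnc and Postn, and in Tnn by a narrow margin, from 0.337 CPM in the lowest DAAO library to 0.300 CPM in the highest control library; they overlap for the other genes.

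The sequences before the start of both genes that rose are shown, since these stretches lie just ahead of the place where transcription of each begins. They are the 250 bases ahead of the RefSeq start nearest the deposited gene start, build GRCm38.p6, 5′ to 3′ on the gene's own strand, with matches to searched motifs in capitals. The Tnc stretch is chr4:64047016-64047265, minus strand, and the Postn stretch is chr3:54360857-54361106, plus strand. For each of these genes 2 start entries were at hand.

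Tnc: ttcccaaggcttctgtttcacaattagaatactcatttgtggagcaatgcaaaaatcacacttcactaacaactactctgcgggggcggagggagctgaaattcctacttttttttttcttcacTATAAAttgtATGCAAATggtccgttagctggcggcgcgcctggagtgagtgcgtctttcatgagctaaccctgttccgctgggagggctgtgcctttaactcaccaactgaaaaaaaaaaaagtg

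Postn: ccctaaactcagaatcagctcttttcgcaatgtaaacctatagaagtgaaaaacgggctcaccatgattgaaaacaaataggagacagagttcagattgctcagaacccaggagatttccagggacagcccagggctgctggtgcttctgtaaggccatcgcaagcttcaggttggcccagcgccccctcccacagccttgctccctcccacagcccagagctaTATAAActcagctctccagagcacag

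The capitals in Tnc mark a TATA box (TATAAA) that begins 126 bases before the start and an octamer (ATGCAAAT), the letters bound by POU-domain factors, that begins 116 bases before it. Those in Postn mark a TATA box 26 bases before the start, the distance at which such boxes usually lie. The TATAAA letters of Tnc lie farther from the start used here than that. Of 32817 start windows of this length in the table, 12.4% held TATAAA and 1.6% held the octamer, on either strand. An AP-1 site (TGANTCA), a cAMP response element (TGACGTCA) and a Runx core (TGTGGT) were searched as well and were found in 6.75%, 1.55% and 14.0% of windows. Neither the Tnc nor the Postn stretch holds these letters. Among the 8 of the 10 genes whose start window was at hand, the AP-1 letters were in Tnxb alone, 55 bases before its start, and the Runx core in Spp1 alone. A match of letters is a description, not a bound site.

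Tenascin-C, the hexameric glycoprotein encoded by Tnc (ENSMUSG00000028364; GRCm38 chromosome 4, 63959785 to 64047015, minus strand), ranged from 36.3 to 96.9 CPM in DAAO libraries, with a median of 61.4, and from 2.01 to 4.26 CPM in control libraries, with a median of 2.26. Every DAAO library thus stood above every control library. DAAO 1 and DAAO 2 were the highest at 96.9 and 96.2 CPM, and DAAO 5 was the lowest. The log2 fold change was 4.63 ± 0.29 (SE, n = 6 per group), with the smallest p of all genes tested (edgeR adjusted p = 3.62e-07). The relative spread within groups was alike, with a coefficient of variation of 37.5% in DAAO libraries and 33.4% in control libraries, and the value rests on 7292 counts in DAAO libraries and 298 in control libraries. Markers of cell types that appear after nerve damage were compared between the groups as well. Of 6 markers of lipid-handling phagocytes 5 were called higher (median log2 difference 3.43), with sums from 1008 to 1617 CPM in DAAO libraries and from 775 to 1418 CPM in control libraries. Cd9, the marker not called, made up most of these sums, with means of 870 CPM in DAAO libraries and 971 CPM in control libraries. The mean log2 CPM of the phagocyte markers, centred over the 12 libraries, did not overlap. It ran from 0.88 to 2.64 in DAAO libraries and from -2.27 to -0.97 in control libraries. Of 8 repair Schwann cell markers 3 were called higher (median 1.30), with sums from 757 to 922 CPM in DAAO libraries and from 336 to 766 CPM in control libraries. Ngfr, not called, made up most of these sums, with means of 708 CPM in DAAO libraries and 537 CPM in control libraries. The centred mean of this list ran from 0.38 to 1.25 in DAAO libraries and from -1.94 to -0.0024 in control libraries. Cd9 and Ngfr were picked for mention with their values known. The part of either list in the Tnc value was not tested. Lgals3 and Mmp12 among these phagocyte markers, and Runx2 among the repair Schwann cell markers, are counted again on other lists below. An antisense transcript, 8030451A03Rik, runs through Tnc on the other strand and shares 176 exonic bases with it; it had 142 counts over the DAAO libraries and 1 over the control libraries, and without the strand setting of the counting its reads cannot be told apart from those of Tnc at the shared bases.

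Tenascin-X, the product of Tnxb (ENSMUSG00000033327; chromosome 17, 34670535 to 34719815, plus strand), is the tenascin of collagen-rich connective tissue. It ranged from 43.8 to 83.9 CPM in DAAO libraries, with a median of 68.5, and from 46.7 to 61.8 CPM in control libraries, with a median of 54.3. DAAO 5, the lowest of all libraries, lay below the controls, and 4 of 6 DAAO libraries lay above the highest control. The log2 fold change of 0.31 ± 0.14 (SE; 95% interval 0.01 to 0.61) did not pass over all genes (edgeR adjusted p = 0.462).

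The proportion of the first pair of tenascins differed between the groups. Per kilobase of exon, Tnc made up between 54.0% and 67.1% of the sum of Tnc and Tnxb in DAAO libraries, and between 5.36% and 10.8% in control libraries. Tnc was thus the more abundant transcript per length in all 6 DAAO libraries and Tnxb in all 6 control libraries.

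Tenascin-W, the product of Tnn (ENSMUSG00000026725; chromosome 1, 160085029 to 160153580, minus strand), is known in mice mainly from developing bone and tumour stroma. It was scarce: the DAAO libraries held 6 to 36 counts each, 142 in all, and the control libraries 0 to 6 each, 11 in all, with 3 control libraries at 0. In CPM that is a median of 1.15 in DAAO libraries and 0.0539 in control libraries. DAAO 3 and control 3 had 6 counts each, so the groups are apart in CPM by little, and DAAO 3 alone kept the gene from the filter on low counts, which asks for enough counts in 6 libraries. In the edgeR fits whose filter kept it, its adjusted p lay between 0.0752 and 0.158, and DESeq2 called it (log2 fold change 3.70 ± 0.85 SE, adjusted p = 0.00209).

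Periostin, the product of Postn (ENSMUSG00000027750; chromosome 3, 54361109 to 54391037, plus strand), helps assemble tenascin-C and fibronectin into matrix and is induced by TGF-beta in fibroblasts. It ranged from 42.4 to 83.1 CPM in DAAO libraries, with a median of 60.6, and from 21.6 to 31.0 CPM in control libraries, with a median of 26.8. The groups did not overlap, and DAAO 1 and DAAO 2 were again the highest, with DAAO 5 the lowest. The log2 fold change was 1.25 ± 0.17 (SE, n = 6 per group; edgeR adjusted p = 0.00160). Full separation of the 12 libraries by group was seen in 1.45% of the genes in the fit, and with DAAO on top in 0.918%.

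Fibronectin, encoded by Fn1 (ENSMUSG00000026193; chromosome 1, 71585520 to 71653200, minus strand), is the main adhesive glycoprotein on which tenascins and periostin assemble. It ranged from 70.1 to 270 CPM in DAAO libraries, with a median of 168, and from 18.5 to 180 CPM in control libraries, with a median of 94.7. The control libraries split widely: controls 4 and 6 had 20.1 and 18.5 CPM, and controls 2, 3 and 5 had 137, 180 and 149. The highest control was 9.73 times the lowest, against 3.86 times among DAAO libraries, and the log2 fold change of 0.83 ± 0.60 (SE; 95% interval -0.48 to 2.15) did not pass (edgeR adjusted p = 0.712).

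The thrombospondins bind CD36, CD47 and integrins, and in the nervous system astrocyte thrombospondins promote synapse formation through the calcium channel subunit encoded by Cacna2d1. Thbs1 (ENSMUSG00000040152; chromosome 2, 118111876 to 118127133) ranged from 14.3 to 104 CPM in DAAO libraries, with a median of 44.5, and from 9.55 to 54.3 CPM in control libraries, with a median of 22.7. Thbs2 (ENSMUSG00000023885; chromosome 17, 14665500 to 14694235) ranged from 13.0 to 45.7 CPM in DAAO libraries, with a median of 30.9, and from 6.33 to 29.0 CPM in control libraries, with a median of 12.4. Both overlapped between groups, with 3 and 4 of 6 DAAO libraries above the highest control. Thbs4 (ENSMUSG00000021702; chromosome 13, 92751590 to 92794818), the member linked to tendon, muscle and nerve injury, ranged from 16.9 to 54.9 CPM in DAAO libraries, with a median of 28.6, and from 6.93 to 47.2 CPM in control libraries, with a median of 15.9. The control median was exceeded in 6 of 6 DAAO libraries, but 4 lay below control 2. The log2 fold changes were 0.87 ± 0.52 for Thbs1, 0.91 ± 0.42 for Thbs2 and 0.72 ± 0.46 for Thbs4 (SE), with edgeR adjusted p of 0.631, 0.478 and 0.650. Their 95% intervals, -0.27 to 2.01, 0.01 to 1.80 and -0.27 to 1.72, all hold a doubling (a log2 fold change of 1).

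Sparc (ENSMUSG00000018593; chromosome 11, 55394500 to 55423183, minus strand), which encodes the collagen-binding glycoprotein osteonectin, was by far the most abundant of the 10. It ranged from 1186 to 1471 CPM in DAAO libraries, with a median of 1386, and from 767 to 2268 CPM in control libraries, with a median of 1083. The DAAO libraries sat within the range of the controls, where control 2 was highest and control 4 lowest. The coefficient of variation was 8.73% in DAAO libraries and 44.4% in control libraries. The log2 fold change was 0.12 ± 0.22 (SE, 95% interval -0.34 to 0.57, edgeR adjusted p = 0.929). With single libraries left out it lay between 0.012 (without control 4) and 0.38 (without control 2, edgeR adjusted p = 0.213).

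Osteopontin, encoded by Spp1 (ENSMUSG00000029304; chromosome 5, 104435118 to 104441050, plus strand), was the only one of the tested genes with a negative log2 fold change. It ranged from 107 to 176 CPM in DAAO libraries, with a median of 127, and from 137 to 213 CPM in control libraries, with a median of 169. The control median was exceeded in 1 of 6 DAAO libraries, DAAO 3. The log2 fold change of -0.36 ± 0.15 (SE; 95% interval -0.67 to -0.05) did not pass (edgeR adjusted p = 0.387). Of the cells that can make osteopontin, proprioceptors, which are a part of the large sensory neurons, and macrophages were followed here by their markers. For the 6 proprioceptor markers the median was -1.18 on the log2 scale, with 4 lower and none higher, and their sum ran from 256 to 393 CPM in DAAO libraries and from 411 to 957 CPM in control libraries. For the 8 macrophage markers it was 0.82, with none called, and summed to between 123 and 487 CPM in DAAO libraries and to between 39.2 and 297 CPM in control libraries. The part of the proprioceptors in the Spp1 value was not tested; with the macrophage level as a term its log2 fold change was -0.59 (edgeR adjusted p = 0.0566), which did not pass either.

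**Figure D2:**
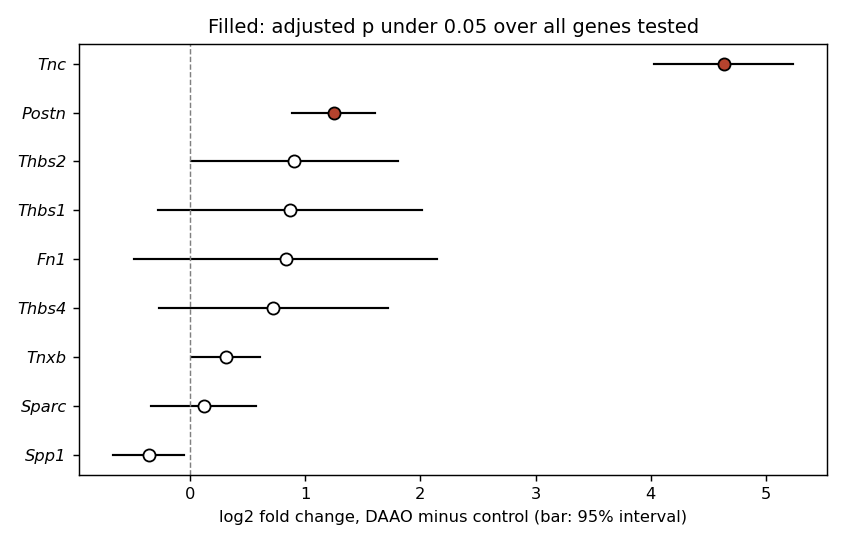
Log2 fold change of the 9 genes tested, DAAO minus control, with bars for the 95% interval and filled points for an adjusted p under 0.05 over all genes. Tnc (4.63) and Postn (1.25) are filled and clear of 0; the open points run from -0.36 for Spp1 to 0.91 for Thbs2.

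Compared per kilobase of exon, the order of levels was led in both groups by Sparc, at 354 ± 30.9 CPM per kilobase in DAAO libraries and 327 ± 145 in control libraries (SD, n = 6), then Spp1, at 81.4 ± 16.9 in DAAO libraries and 104 ± 16.2 in control libraries. Sparc and Spp1 were in that order in 6 of 6 libraries of each group with no overlap of their ranges. Below them, Fn1, Thbs4, Tnc, Thbs1, Postn, Tnxb and Thbs2 followed in DAAO libraries within 14.1 and 4.34 CPM per kilobase, and each neighbouring pair overlapped in range. In control libraries Fn1, Thbs4, Tnxb, Thbs1, Postn and Thbs2 lay within 7.94 and 2.31 CPM per kilobase, again with every neighbouring pair overlapping. Tnc was apart from that band in the controls: it was the ninth of 10, at 0.346 ± 0.116 CPM per kilobase, below Thbs2 in 6 of 6 control libraries, whereas in DAAO libraries it was the fifth, at 8.65 ± 3.24. Tnn was the lowest in both groups, at 0.221 in DAAO libraries and 0.0164 in control libraries.

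**Figure D3:**
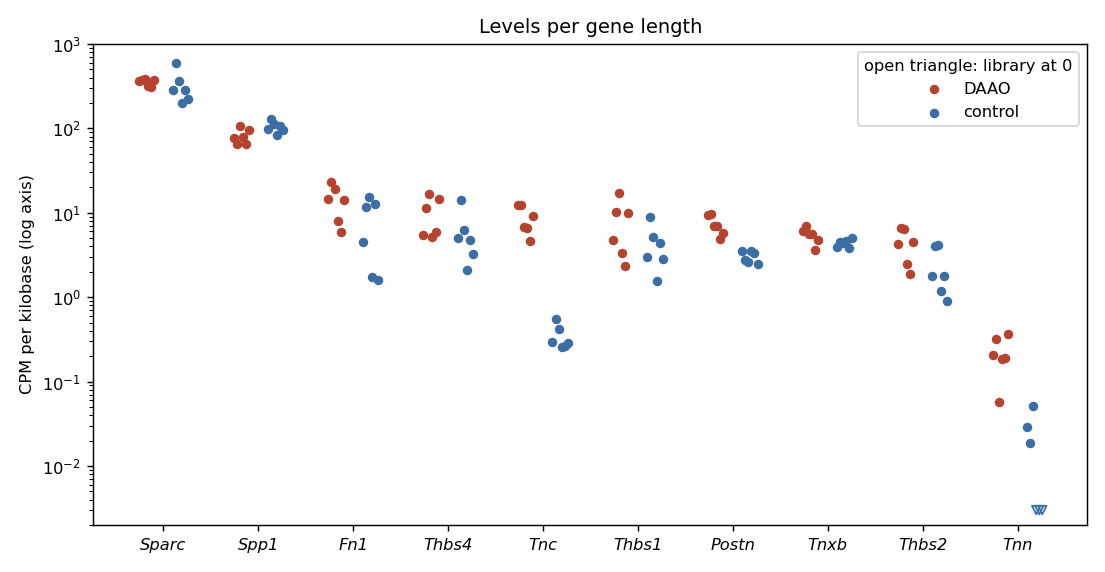
CPM per kilobase of exon on a log axis for the 10 genes, ordered by their DAAO mean, with 1 point per library (DAAO left, control right in each pair) and open triangles for libraries at 0. Tnc sits with the thrombospondins in DAAO libraries, at 8.65 on average, and near the bottom in control libraries, at 0.346.

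Several of the 10 genes were low in the libraries that were low in fibroblast and macrophage markers. The 8 fibroblast markers summed to between 1693 and 3789 CPM in DAAO libraries and to between 727 and 3560 CPM in control libraries; all 8 had positive log2 fold changes with a median of 0.47, and 1, the collagen gene Col5a1, was called higher. Controls 4, 6 and 1 had the least of these markers, with 727, 1126 and 1382 CPM, and the same 3 libraries were the lowest controls for Fn1, Thbs1, Thbs2 and Sparc. Controls 1 and 5 were close for Thbs2 (12.37 and 12.43 CPM) and Sparc (1078 and 1087 CPM). The lowest controls were 4, 6 and 5 for Thbs4 and 4, 5 and 6 for Tnc. DAAO 4 and DAAO 5 had the least among the DAAO libraries, with 1738 and 1693 CPM, and were also the lowest DAAO libraries for Fn1, Thbs1, Thbs2 and Sparc. Both were the lowest DAAO libraries for Tnc too, at 51.0 and 36.3 CPM, whereas for Thbs4 these were DAAO 4 and DAAO 1. Macrophage markers were lowest in the same libraries, at 39.2, 98.6 and 107 CPM in controls 4, 6 and 1 and at 123 and 156 CPM in DAAO 4 and 5, so fibroblast and macrophage content cannot be told apart here. With the fibroblast level as a term in the fit, the log2 fold change was -0.042 for Fn1, -0.052 for Thbs1, 0.20 for Thbs2, 0.067 for Thbs4 and -0.19 for Sparc, and none passed. With the same term it was 4.25 for Tnc (edgeR adjusted p = 4.74e-08) and 1.22 for Postn (adjusted p = 0.00923), both still past the threshold, at 4.25 against 4.63 and 1.22 against 1.25 without the term. With the macrophage level as a term it was -0.18 for Fn1, -0.32 for Thbs1, 0.065 for Thbs2, -0.16 for Thbs4 and -0.25 for Sparc, and none passed. With that term it was 4.24 for Tnc and 1.24 for Postn (adjusted p = 4.59e-07 and 0.0117). Such a term takes up part of any group difference that the markers share.

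**Figure D4:**
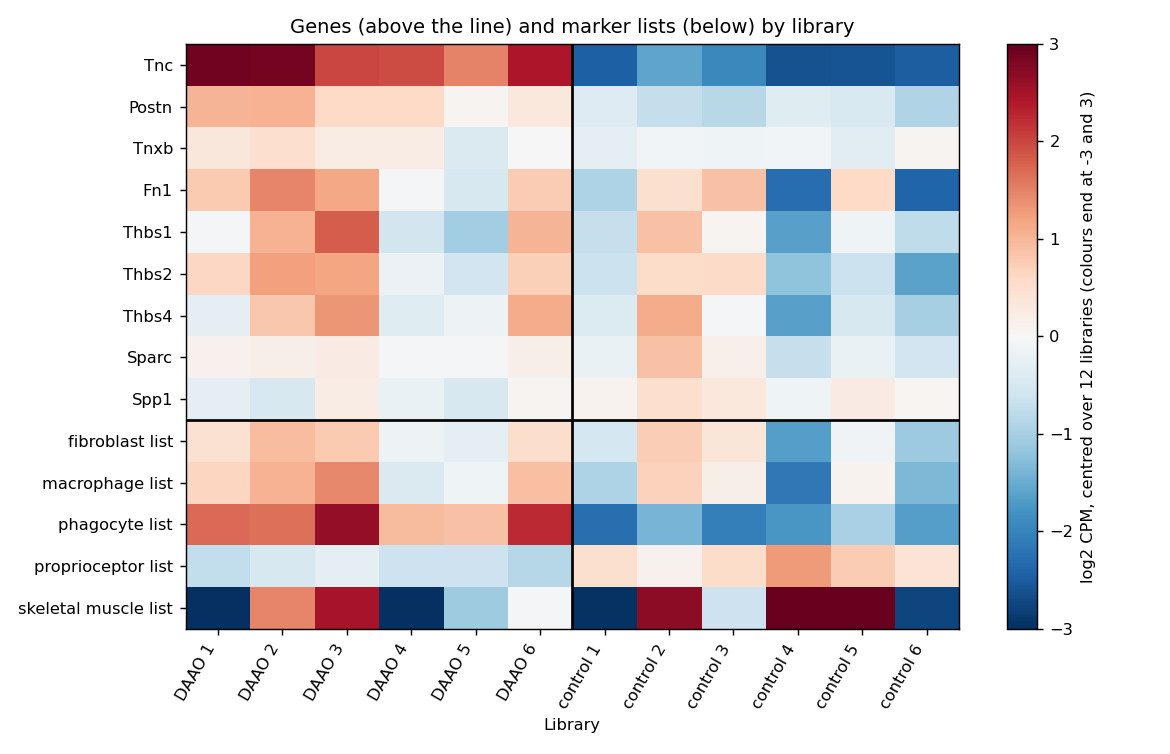
Log2 CPM centred over the 12 libraries for the 9 genes tested (above the line) and for marker lists (mean over each list, below it), with DAAO libraries left and control libraries right; colours end at -3 and 3. Tnc and Postn divide the groups, and Fn1, Thbs1 and Thbs2 are low in DAAO 4 and 5 and in controls 1, 4 and 6, where fibroblast and macrophage markers are also low. Thbs2 is about as low in control 5 as in control 1.

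Tendon, muscle and bone cells are other sources of these proteins. The 5 tendon markers summed to between 35.1 and 76.5 CPM in DAAO libraries and to between 24.9 and 110 CPM in control libraries, and Tnmd was at 0 in 4 libraries. The 6 bone and cartilage markers, Bglap and Ibsp among them, summed to at most 13.6 CPM in DAAO libraries and 14.1 CPM in control libraries, with Bglap at 0 in 6 of 12 libraries; Tnmd, Bglap and Ibsp were picked for mention with their values known. None of the 4 tendon and 3 bone and cartilage markers tested was called, and neither was any of the 6 muscle markers, which were highest in control 4. The part of tendon and bone in the Thbs4 and Sparc values was not tested. With the skeletal muscle level as a term the log2 fold change was 0.84 for Thbs4 and 0.17 for Sparc, against 0.72 and 0.12 without it, and neither passed. For 5 markers of endothelial cells, to which the Cdh5 promoter directs Cre, the median log2 difference was 0.058 with none called, and for 5 mural cell markers it was -0.16 with none called.

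The genes whose profile over the 12 libraries lay nearest to Tnc (mean absolute difference of centred log2 CPM, among 15638 genes with a mean of at least 1 CPM) were Wnt10b, a Wnt ligand, Gpnmb, a phagocyte glycoprotein, Btc, the growth factor betacellulin, Clec4d, a myeloid lectin, and Il7r, the interleukin-7 receptor. Their differences from Tnc were 0.718, 0.720, 0.746, 0.767 and 0.767 log2 units, against a median of 2.26 over all genes compared. Postn had closer neighbours. They were Epha5, an ephrin receptor, at 0.141, Fosl2, an AP-1 transcription factor, at 0.198, Col5a1, a fibrillar collagen chain, at 0.211, Mmp17, a membrane-bound metalloproteinase, at 0.213, and Hspg2, the basement membrane proteoglycan perlecan, at 0.218, against a median of 0.655. All 10 of these neighbours were also called higher in DAAO libraries, with log2 fold changes of at least 3.66 for the first 5 and at least 0.91 for the others, as nearness in a profile with this split between the groups would select.

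Few calls were made among other matricellular genes. Of 20 on the list 19 were tested, 1 was called higher and none lower, with a median log2 fold change of 0.13. The called gene was Lgals3, galectin-3, a carbohydrate-binding protein of phagocytes, at 56.2 to 164 CPM in DAAO libraries and 12.9 to 31.6 CPM in control libraries (2.55 ± 0.32 SE, edgeR adjusted p = 0.00167). Next by p were Thbs3, another thrombospondin (0.67 ± 0.20, adjusted p = 0.159), and Tgfbi, a TGF-beta-induced matrix protein related to periostin (1.08 ± 0.40, adjusted p = 0.349), neither of which passed.

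Receptors for these proteins were measured as 19 genes, all tested, of which 1 was called higher and none lower, with a median of 0.06. Sdc1, the heparan sulfate proteoglycan syndecan-1, averaged 46.5 ± 6.41 CPM in DAAO libraries and 29.7 ± 5.23 CPM in control libraries (SD, n = 6; log2 fold change 0.65 ± 0.14 SE, edgeR adjusted p = 0.0377). That call was lost without DAAO 1, 2, 3, 4 or 6 or control 3, 4, 5 or 6 (adjusted p from 0.0532 to 0.119). It was lost too with the replicate block (0.0718) and with the fibroblast (0.0909), macrophage (0.0923) or muscle (0.0606) level as a term, at log2 fold changes from 0.64 to 0.66. Itgb8, an integrin subunit that activates TGF-beta, ranged from 162 to 237 CPM in DAAO libraries and from 75.4 to 153 CPM in control libraries without overlap, but did not pass (0.67 ± 0.16, adjusted p = 0.0668). Itga5, the alpha chain of the classic fibronectin receptor, had a log2 fold change of 1.31 ± 0.36 (adjusted p = 0.137). Ptprz1, a receptor phosphatase that binds tenascins, ranged from 46.1 to 67.7 CPM in DAAO libraries and from 68.0 to 96.0 CPM in control libraries, without overlap in the other direction, and did not pass (-0.40 ± 0.12, edgeR adjusted p = 0.159). The tenascin-C receptor subunit Itga9 had 0.065 and Cacna2d1 had 0.031 (adjusted p = 0.981 for both). Ptprz1, Itga9 and Cacna2d1 were chosen for mention after their values were seen.

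Of 11 processing enzymes 10 were tested, 3 were called higher and none lower, with a median of 0.56. Mmp12, the macrophage elastase, ranged from 3.05 to 17.8 CPM in DAAO libraries and from 0 to 0.657 CPM in control libraries (5.15 ± 0.83 SE, edgeR adjusted p = 0.00854), a call lost with limma-voom and with the fibroblast or macrophage level as a term (adjusted p from 0.0535 to 0.0990), with log2 fold changes of 6.79, 5.29 and 4.71. Mmp14, a membrane-anchored collagenase, averaged 83.8 ± 24.8 CPM in DAAO libraries and 43.3 ± 8.85 CPM in control libraries (SD, n = 6; adjusted p = 0.0254). Bmp1, the procollagen C-proteinase, averaged 43.2 ± 14.0 CPM in DAAO libraries and 21.2 ± 5.06 CPM in control libraries (SD, n = 6; adjusted p = 0.0325). Both calls were lost with the fibroblast or macrophage level as a term, where the log2 fold change was 0.69 and 0.64 for Mmp14, against 0.95 without a term, and 0.98 and 1.04 for Bmp1, against 1.03. That of Bmp1 was lost with the muscle level as well (0.97). The call of Mmp14 was also lost without DAAO 1, 2, 3 or 6 or control 1, 3, 4 or 5 (adjusted p from 0.0571 to 0.0878), and that of Bmp1 without DAAO 1, 2, 4 or 6 or control 1, 3, 4 or 5 (from 0.0591 to 0.104).

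Of 15 regulators, genes known to act on tenascin or periostin transcription or on TGF-beta signalling, all were tested, 3 were called higher and none lower, with a median of 0.50. Atf3 and Jun, injury-induced transcription factors that pair with each other, and Runx2, a transcription factor that binds the Spp1 promoter in bone cells, were the 3, with log2 fold changes of 2.16 ± 0.23, 0.62 ± 0.10 and 1.67 ± 0.25 (SE; edgeR adjusted p = 0.000235, 0.00789 and 0.00260). Runx2 lies across Supt3 on the other strand, so part of its counts is uncertain. The ligands Tgfb1, Tgfb2 and Tgfb3 had log2 fold changes of 0.50, 0.14 and -0.11, chosen for mention after their values were seen, and none passed (adjusted p = 0.459, 0.911 and 0.905).

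**Figure D5:**
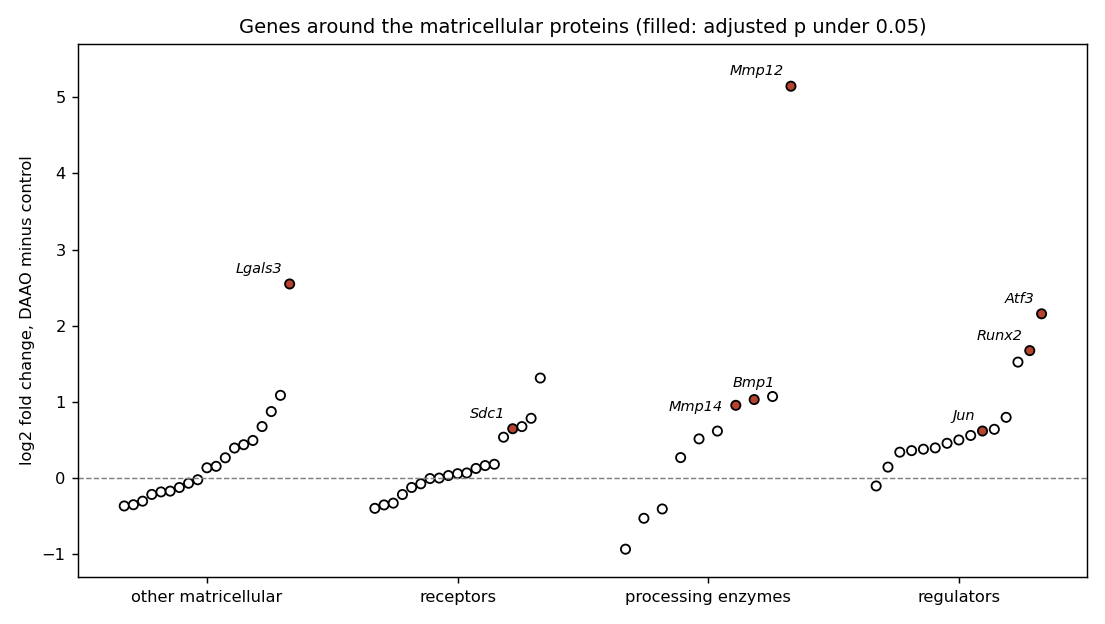
Log2 fold change, DAAO minus control, of the tested genes on 4 lists: other matricellular genes (19), receptors (19), processing enzymes (10) and regulators (15), ordered by value within each list. Filled points passed an adjusted p under 0.05 over all genes and are named. Mmp12 (5.15) and Lgals3 (2.55) lie highest. Both are also phagocyte markers, and Runx2 is also a repair Schwann cell marker, in the lists used above.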

How the data were processed

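The deposited table holds raw read counts per gene for the 12 libraries; per the submitters' processing notes the authors used HISAT2 2.0.5, FastQC and DESeq2 1.20.0 with build GRCm38 (mm10). Which program counted reads, whether it used strand and which annotation it read: not given in the sources used here. Total RNA was sequenced as paired reads, per the labels' protocols. The deposited gene lengths are another unit, bases per gene model; for the 10 genes they equal the merged exons of GENCODE M21.

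Genes were kept with filterByExpr (minimum count 10, minimum total 15), leaving 17002 genes that held 99.7% or more of every library's counts. Counts were scaled by TMM and tested with edgeR 4.0.16 (robust quasi-likelihood, two-sided, R 4.3.3), and p-values were adjusted by Benjamini-Hochberg across these 17002, with calls made under 0.05; the script was tested on simulated data. SE is the absolute log2 fold change over the square root of F, and 95% intervals use the fit's degrees of freedom. Centred log2 CPM used a prior count of 2. Alternatives were other scalings and filters, DESeq2 1.42.0, limma-voom (limma 3.58.1), a replicate block, marker levels as terms and libraries left out. The members, lists and alternatives were chosen with earlier results of these data known. Named genes were all members, the members of 4 lists that passed or had the 3 smallest p-values, and the 5 nearest profiles of Tnc and Postn; any other gene is marked as picked after seeing its values.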

Additional observations from a re-analysis of the deposited data

Results flagged for a closer look

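Thbs4 in control 2 stood at 47.2 CPM, far from the other control libraries, whose next highest value was 20.7 CPM. The gap was 0.659 of the range of the 6 controls, over Dixon's critical value of 0.625. Of 20 combinations of gene and group examined this was the only one, and chance gives about 1 in 20. Without control 2 the log2 fold change of Thbs4 was 1.21 (edgeR adjusted p = 0.148), a larger value that still did not pass. Control 2 also had the most fibroblast marker transcript among the controls (3560 CPM) and the highest values of Sparc, Spp1, Thbs1 and Tnc. It stood apart in glial markers as well, with 2298 CPM of oligodendrocyte, 2702 CPM of satellite glia and 8975 CPM of myelinating Schwann cell markers, against at most 618, 1340 and 5804 CPM in the other controls, and 7.44% of its counts were mitochondrial. The log2 fold change of Thbs4 over all 12 libraries was 0.067, -0.16 and 0.84 with the fibroblast, macrophage and skeletal muscle level as a term, against 0.72 without one; the part of the glial markers was not tested.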

How the results depend on the processing

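For the 9 genes tested, 24 alternatives gave 216 log2 fold changes, of which 209 kept direction and side of the threshold and 7 reversed. Tnc ranged from 4.24 to 4.82 and Postn from 1.15 to 1.34, and both passed in every alternative (largest adjusted p = 0.000384 and 0.0117). All 7 reversals were of genes that had not passed: with the fibroblast level as a term, Fn1 (-0.042), Sparc (-0.19) and Thbs1 (-0.052), and with the macrophage level, Fn1 (-0.18), Sparc (-0.25), Thbs1 (-0.32) and Thbs4 (-0.16); the cause was not tested. The count of genes past the threshold, 128, was 370 with DESeq2, 307 with limma-voom, 648 without controls 2 and 6 (the libraries of highest mitochondrial share, 7.44% and 7.65%, against 3.32% to 5.13% in the others), and between 61 and 322 with single libraries left out. The replicate block gave 187 calls and changed no call of the 9 genes. With it the SE was smaller for each of them but Spp1, for Thbs2 0.24 against 0.42. Over all genes, same-numbered libraries correlated from -0.08 to 0.21, with 2 of 6 closest to their own number. Oligodendrocyte markers were highest in DAAO 2 and control 2 (657 and 2298 CPM) and lowest in DAAO 4 and control 4 (112 and 42.3 CPM). Whether the numbers pair the libraries or mark a shared batch cannot be told from these values. DESeq2 tested Tnn as well and called it, which made 3 of the 10 genes. Depth limits Tnn, with 11 counts over the control libraries.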

Other observations

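A pair of low-count transcripts beside these genes was seen almost only in DAAO libraries; both were noticed after their values were seen and neither passed the filter on low counts. 8030451A03Rik (ENSMUSG00000073821; GRCm38 chromosome 4, 63979854 to 64149924), the transcript opposite Tnc, had 10, 66, 0, 24, 22 and 20 counts in DAAO 1 to 6, against 1 in control 4 and 0 in the other control libraries. DAAO 3, with 931 counts of Tnc, had none of it, and DAAO 4, with 937 counts of Tnc, had 24. Cyp21a2-ps (ENSMUSG00000092471; chromosome 17, 34719813 to 34722252), a pseudogene that touches the end of Tnxb on the other strand, had 7, 11, 0, 15, 4 and 0 counts in DAAO 1 to 6 and 0 in all 6 control libraries. Counts of a pseudogene are uncertain where a near-identical copy exists.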
